A study of Mus musculus with 4 samples.

Results

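The genes described here are 38 genes of the hypoxia response and of glycolysis, given as a list of names, and 36 of them were measured alone by at least 1 probe set among the 30702 genes on the array. They were split by role into 6 regulators of the hypoxia-inducible factors (HIFs), 21 genes of glucose transport, glycolysis and its regulation (19 measured) and 11 other hypoxia targets. The glycolytic genes Gpi1 and Eno1 had no probe set named to them alone and were not analysed here. The RNA came from whole lungs of adult mice matched for age, hybridised to 4 Affymetrix arrays, 2 from mice with sickle cell disease (SCD) carrying the strain label SCD Tg and 2 from wild-type (WT) mice with the strain label C57/BL6. The transgenic line, the genetic background of the SCD mice, their sex and their oxygen status are not stated in the labels, so that genotype and any difference of background cannot be told apart. No label states that each array is a separate animal beyond the mention of 2 lungs per group, so that p-values measure the spread between these samples. Values are log2 expression, 1 per probe set and array. Differences are the SCD mean less the WT mean on that scale, given ± standard error (SE) from limma, a linear model fitted to every gene, with n = 2 arrays per group. The p-values were adjusted by Benjamini-Hochberg across the 30702 genes, and a gene passed at an adjusted p under 0.05.

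Cells read oxygen through prolyl hydroxylases (the Egln genes), which mark the HIF alpha subunits for capture by Vhl and for destruction. When oxygen is scarce the alpha subunits, encoded by Hif1a and Epas1 (HIF-2 alpha), last longer, pair with Arnt and bind hypoxia response elements near their targets. The targets include glucose transporters, most glycolytic enzymes, mitophagy receptors, collagen hydroxylases and lipid droplet proteins. Control of the alpha subunits is mainly at the protein level, which these arrays do not measure. In lung, Epas1 is known above all from endothelial cells and type 2 epithelial cells.

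Across all genes, 952 of 30702 passed, 757 upward and 195 downward in SCD, an upward share of 79.5%. The positive control probe sets of the array were also brighter in SCD, with medians of 10.26 and 10.29 on the SCD arrays and 10.01 and 10.15 on the WT arrays. With their mean shift of 0.20 taken off every SCD value, the upward share of the calls was 47.8% and the median difference of all genes moved to -0.19, against 0.00 as deposited. The lung markers Sftpb, Sftpa1, Ager, Hopx and Nkx2-1 did not pass, with differences between -0.09 and 0.17, and Sftpc and Scgb1a1 held the highest value of the table, 19.93, on all 4 arrays. Medians of the negative control probe sets were 6.31 and 6.28 on the SCD arrays and 6.48 and 6.47 on the WT arrays. Their mean shift was -0.18, opposite in sign to that of the positive controls. Positive and negative controls thus did not share 1 shift. Results with the shift of the positive controls taken off show only what subtracting 0.20 from every SCD value does. Whether that subtraction suits the genes was not tested. Of the 36 genes, 8 lay below the negative control medians on every array: Egln3, Hif3a, Aldoc, Eno2, Slc16a3, Slc2a3, Adm and Car9. The median of all genes tested, 5.88 for the SCD means and 5.88 for the WT means, also lay below these controls.

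Bnip3l, Ndrg1, P4ha2 and Pfkfb3 rose in SCD lung, and Hilpda and Epas1 fell. Of the 36 measured genes, 4 rose (11.1%, against 2.47% of all genes tested) and 2 fell (5.56%, against 0.635% of all genes tested), while 30 did not pass. Among protein-coding genes in the same fit 2.6% rose and 0.718% fell. The 36 genes were also brighter than all genes, with medians of the SCD means of 7.65 and 5.88, and the part of brightness in these shares was not tested. The median difference of the 36 genes was 0.20, against 0.00 over all genes; with the shift of the positive controls taken off, the medians were 0.01 for the 36 genes and -0.19 for all genes. Positive differences were found for 24 of the 36 genes (66.7%, against 50.3% of all genes), and for 18 with that shift taken off. That subtraction lowers every gene alike, and the share of all genes positive after it was not counted. The SCD arrays both lay above both WT arrays for 20 genes, both lay below for 7, and the groups overlapped for 9; over all genes tested 25.3% lay above and 22.5% below. The difference between groups was larger than the widest gap between arrays of 1 group for 26 of the 36 genes, and for 34.8% of all genes. With 1 array left out, a group holds a single array, which is assumed to vary like the other group, and the spread is estimated from that other group alone. In these fits limma called none of the 36 genes, and 0 of all genes, without SCD replicate 1 or without SCD replicate 2, where 9 and 11 of the 36 had an unadjusted p under 0.05, as did 3306 and 3270 of all genes. Without WT replicate 1 only Bnip3l was called (adjusted p = 0.0379), and without WT replicate 2 Bnip3l (adjusted p = 0.0371) and Hilpda (adjusted p = 0.0351), out of 36. Over these 4 fits the differences stayed between 0.88 and 1.12 for Bnip3l, 0.83 and 0.97 for Ndrg1, 0.66 and 0.68 for P4ha2, 0.59 and 0.73 for Pfkfb3, -1.16 and -1.02 for Hilpda, and -0.37 and -0.35 for Epas1.

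**Figure D1:**
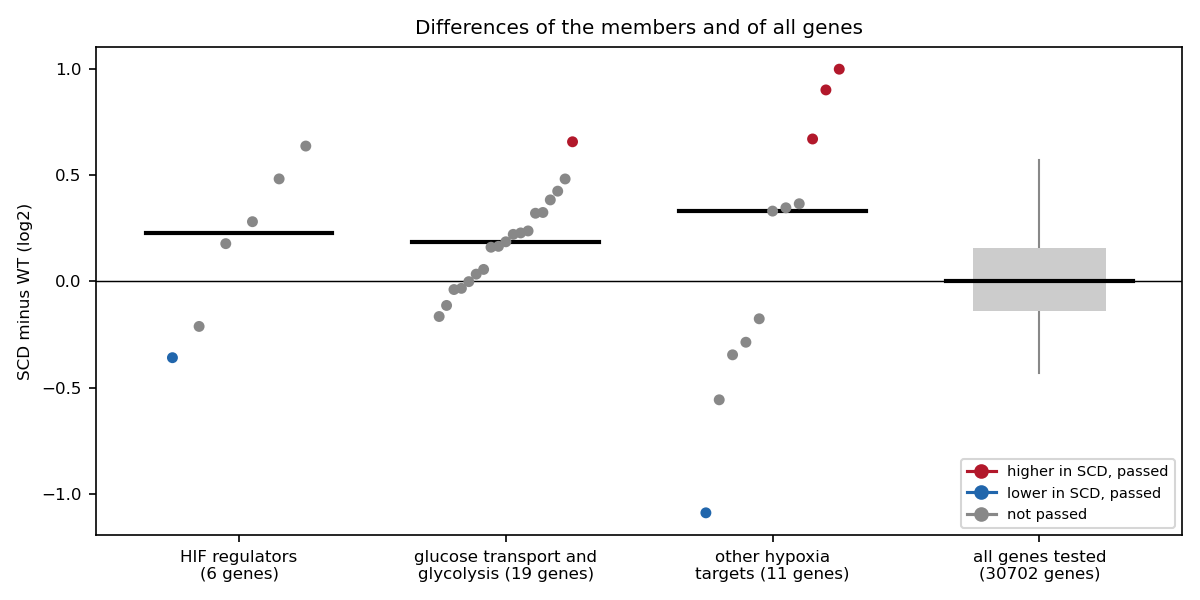
Differences, SCD minus WT on the log2 scale, for the 6 HIF regulators, the 19 genes of glucose transport and glycolysis and the 11 other hypoxia targets, 1 point per gene, beside all 30702 genes tested (box, middle 50%; line, percentiles 5 to 95); thick bars are medians. Medians were 0.23, 0.19 and 0.33 for the 3 roles and 0.00 for all genes; all 4 lie about 0.20 lower with the shift of the positive controls taken off, and the other hypoxia targets spread from -1.09 to 1.00.

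Among the HIF regulators, Epas1 fell and Hif1a did not pass, with a difference of the opposite sign. Epas1, which encodes HIF-2 alpha, had values of 16.12 and 16.11 on the SCD arrays, against 16.48 and 16.47 on the WT arrays. Arrays of 1 group lay at most 0.01 apart, and the groups did not overlap. The difference was -0.36 ± 0.05 (1.28-fold lower; adjusted p = 0.0334). The call of Epas1 was lost without limma's intensity trend (adjusted p = 0.184), with equal array medians (adjusted p = 0.0736), with robust variances (adjusted p = 0.0712) and with genes of identical values left out (adjusted p = 0.0542), and the difference lay between -0.55 and -0.34 in the alternatives that kept all arrays. Markers of general capillary endothelium moved with it: 4 of 6 fell and none rose, with Aplnr at -3.31 ± 0.21, Kit at -2.18 ± 0.09 and Gpihbp1 at -1.56 ± 0.09. Their linear values summed to 19900 and 21140 on the SCD arrays, against 49290 and 50620 on the WT arrays, and none lay below the negative controls. Of 8 pan-endothelial markers Tek (-1.94 ± 0.08) and Cdh5 (-0.47 ± 0.08) fell. The 6 others did not pass, with differences of 0.65 (Cldn5), 0.24 (Pecam1), 0.20 (Emcn), -0.37 (Kdr), -0.41 (Erg) and -0.60 (Tie1). Of 5 aerocyte markers Car4 (1.18 ± 0.09) and Apln (0.92 ± 0.09) rose. The 3 others did not pass, at 0.18 (Tbx2), 0.02 (Fibin) and -0.25 (Ednrb). The part of these endothelial cells in the difference of Epas1 was not tested. In whole lung fewer cells of a type and less RNA per cell cannot be told apart.

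Hif1a, which encodes HIF-1 alpha, had values of 10.09 and 10.12 on the SCD arrays, against 9.58 and 9.67 on the WT arrays. Both SCD arrays lay above both WT arrays. The difference of 0.48 ± 0.09 missed the threshold over all genes (adjusted p = 0.0702), and passed among protein-coding genes alone (adjusted p = 0.0301) and without the dimmest 50% of genes (adjusted p = 0.042). A probe set shared by Hif1a and Gm15283 gave -0.08 ± 0.14 (adjusted p = 0.851 over all transcript clusters). Hif3a, whose product can act as an inhibitor of the other alpha subunits, had values of 5.67 and 5.75 on the SCD arrays, against 5.55 and 5.503 on the WT arrays, without overlap and below the negative controls (0.18 ± 0.11; adjusted p = 0.513).

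The prolyl hydroxylase gene Egln3, itself a known HIF target, had values of 5.92 and 6.16 on the SCD arrays, against 5.498 and 5.32 on the WT arrays. It had the largest difference among the members that did not pass, 0.64 ± 0.14 (adjusted p = 0.105), and passed only among protein-coding genes alone (adjusted p = 0.0479). Egln1, the main oxygen sensor of the family, had values of 10.53 and 10.89 on the SCD arrays, against 10.21 and 10.65 on the WT arrays. Its arrays overlapped between groups and differed more within each group than between them (0.28 ± 0.20; 95% interval -0.23 to 0.79). Vhl, the substrate receptor of the ubiquitin ligase that captures hydroxylated HIF alpha, had values of 7.35 and 7.04 on the SCD arrays, against 7.29 and 7.52 on the WT arrays, which also overlapped (-0.21 ± 0.16; 95% interval -0.61 to 0.19).

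**Figure D2:**
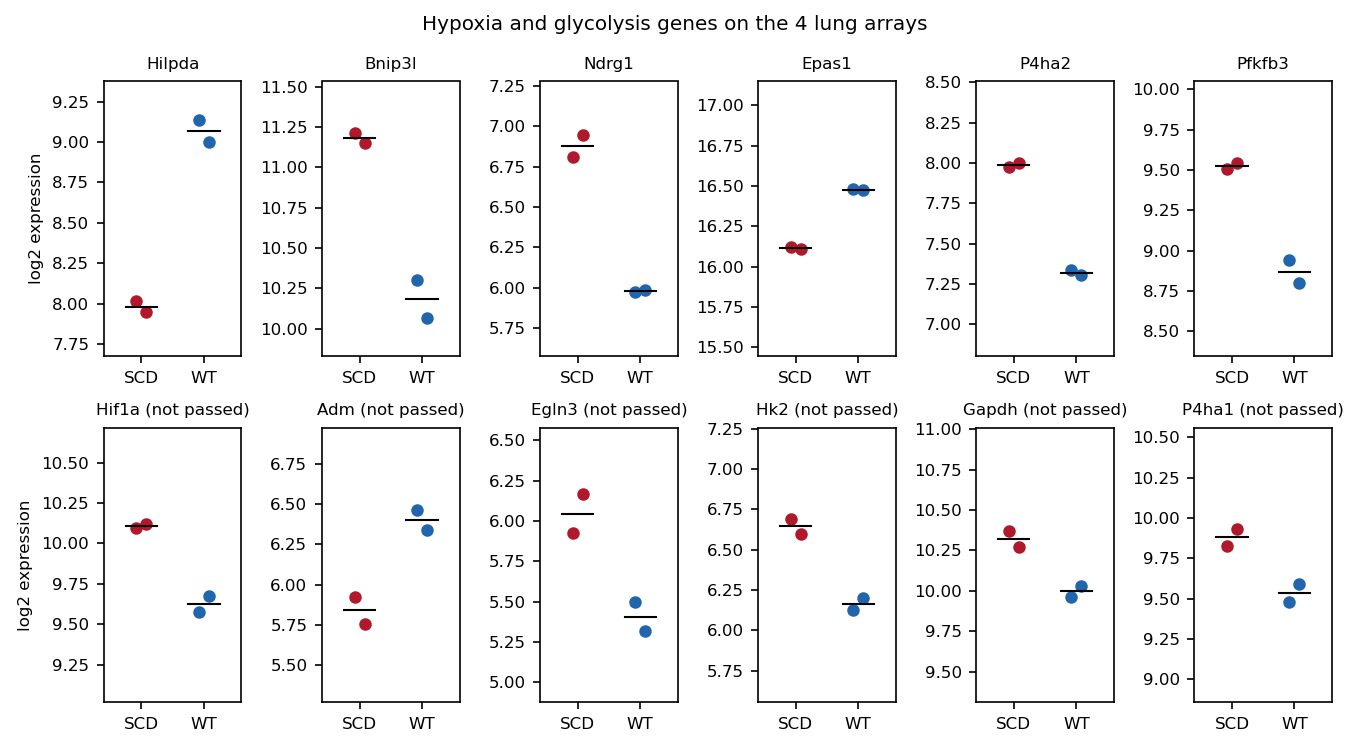
Log2 expression on each array (points; SCD left, WT right; bars, group means) of the 6 genes that passed and the 6 with the next smallest p; every panel spans a range of the same size. The groups did not overlap for any of these 12 genes, which the choice by small p on the same arrays favours. Over all genes tested 25.3% had SCD above WT and 22.5% below, without overlap. Hilpda, Epas1 and Adm were lower on both SCD arrays and the other 9 were higher.

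Of the 19 genes of glucose transport, glycolysis and its regulation, Pfkfb3 rose (5.26%, against 2.47% of all genes). None fell (against 0.635% of all genes) and 18 did not pass. Pfkfb3, which makes the fructose-2,6-bisphosphate that activates phosphofructokinase, had values of 9.51 and 9.54 on the SCD arrays, against 8.94 and 8.80 on the WT arrays. The arrays of the groups lay well apart, and the difference was 0.66 ± 0.10 (1.58-fold; adjusted p = 0.0417). It missed the threshold without the intensity trend (adjusted p = 0.0699), with the replicate number as a block (adjusted p = 0.0637) and with the shift of the positive controls taken off (adjusted p = 0.0822). Its relative Pfkfb4 had values of 6.97 and 7.001 on the SCD arrays, against 7.05 and 7.001 on the WT arrays, with the groups overlapping at -0.04 ± 0.10 and a 95% interval of -0.30 to 0.22. Differences of the 19 genes were positive in 14 cases (73.7%, against 50.3% of all genes), with a median of 0.19, against 0.00 over all genes. With the shift of the positive controls taken off, 9 were positive and the median was -0.01, against -0.19 over all genes. Both SCD arrays lay above both WT arrays for 11 of the 19 (57.9%, against 25.3% of all genes), below for Pdk1 and Aldoc (10.5%, against 22.5% of all genes), and overlapped for 6.

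At the entry of glucose, the transporter gene Slc2a1 (GLUT1) had values of 7.82 and 7.75 on the SCD arrays, against 7.19 and 7.53 on the WT arrays (0.42 ± 0.15; adjusted p = 0.248). Slc2a3 (GLUT3) had values of 5.74 and 5.65 on the SCD arrays, against 5.96 and 5.32 on the WT arrays, where the WT arrays lay further apart than the groups did (0.06 ± 0.23). Hk2, the inducible hexokinase, had values of 6.69 and 6.60 on the SCD arrays, against 6.13 and 6.20 on the WT arrays, with no overlap, and a difference of 0.48 ± 0.11 (adjusted p = 0.108). The other hexokinase gene, Hk1, differed by 0.24 ± 0.11 (adjusted p = 0.378). Its WT arrays and those of Hk2 lay below the negative control median. The phosphofructokinase genes Pfkl and Pfkp, which encode the committed step that Pfkfb3 regulates, overlapped between groups, at -0.03 ± 0.11 and 0.00 ± 0.10; their 95% intervals ran from -0.30 to 0.24 and from -0.25 to 0.25. Aldolase A (Aldoa) and triose phosphate isomerase (Tpi1) differed by 0.17 ± 0.10 and 0.16 ± 0.11, and aldolase C (Aldoc) by -0.11 ± 0.11. Aldoa and Tpi1 turned negative with the shift of the positive controls taken off.

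In the lower part of the pathway, Gapdh, the glyceraldehyde-3-phosphate dehydrogenase gene, had values of 10.37 and 10.27 on the SCD arrays, against 9.96 and 10.03 on the WT arrays (0.32 ± 0.09; adjusted p = 0.17). A brighter probe set shared by Gapdh and Gm7336, numbered for another chromosome than the gene's own, had values of 16.81 and 16.85 on the SCD arrays, against 16.37 and 16.38 on the WT arrays. Its difference of 0.46 ± 0.03 passed in limma over all 65956 transcript clusters (adjusted p = 0.0192). The alternative fits were not run for this shared probe set, and which copy gives its signal was not tested. Pgk1, the phosphoglycerate kinase gene on the X chromosome, was represented by its brighter probe set, which is numbered for chromosome 12, with values of 10.11 and 9.90 on the SCD arrays, against 9.64 and 9.73 on the WT arrays (0.32 ± 0.11; adjusted p = 0.25). The probe set numbered for chromosome X had values of 9.31 and 9.31 on the SCD arrays, against 8.79 and 9.26 on the WT arrays, where SCD also lay above WT but by less than the gap between the WT arrays (0.29 ± 0.19). The phosphoglycerate mutase gene Pgam1 had values of 8.13 and 8.32 on the SCD arrays, against 7.72 and 7.96 on the WT arrays (0.38 ± 0.13; adjusted p = 0.25), and 2 probe sets it shares with pseudogenes gave 0.45 ± 0.15 and 0.35 ± 0.11. Because Gapdh, Pgk1 and Pgam1 have near-identical copies in the mouse genome, signal from gene and copies cannot be told apart.

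Eno2, the neuronal enolase gene, overlapped between groups at 0.03 ± 0.14. The pyruvate kinase gene Pkm and the lactate dehydrogenase gene Ldha lay higher on both SCD arrays without passing, at 0.23 ± 0.10 (adjusted p = 0.356) and 0.22 ± 0.12 (adjusted p = 0.442). Pdk1, a kinase that restrains entry of pyruvate into the citric acid cycle, had values of 6.84 and 6.88 on the SCD arrays, against 7.01 and 7.04 on the WT arrays, lower on both SCD arrays (-0.16 ± 0.10; adjusted p = 0.507). Slc16a3 (MCT4), which exports lactate, overlapped between groups at 0.19 ± 0.14. From hexokinase to lactate dehydrogenase, 0 of 13 enzyme genes passed in limma. Of these, 4 (30.8%, against 16.7% of all genes) had an unadjusted p under 0.05 (Hk2, Gapdh, Pgk1 and Pgam1). Pgk1 counts here through its brighter probe set. In limma over all transcript clusters, its probe set numbered for chromosome X had an unadjusted p of 0.196. Of the 13 genes, 10 had a positive difference (76.9%, against 50.3% of all genes). With the shift of the positive controls taken off, 7 were positive and the median of all genes was -0.19.

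**Figure D3:**
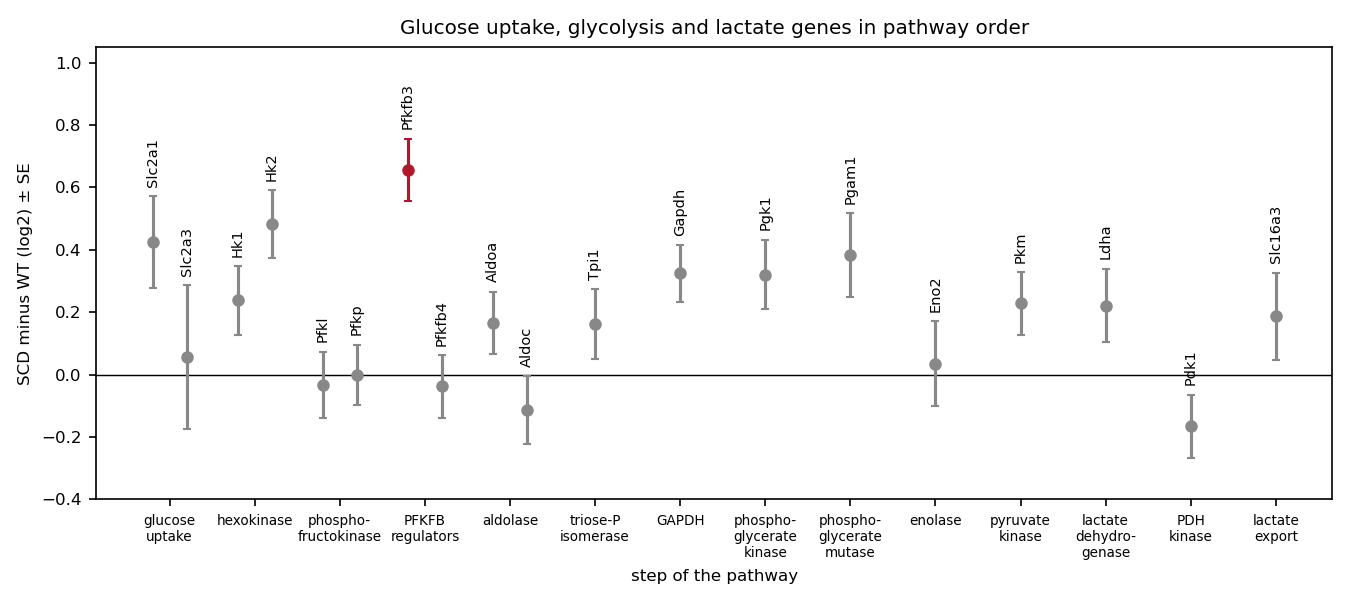
Difference, SCD minus WT as log2 values with SE bars (n = 2 arrays per group), for the 19 measured genes of glucose uptake, glycolysis and lactate handling in pathway order; red marks the gene that passed. Pfkfb3 (0.66) stands above the phosphofructokinase genes it regulates (Pfkl at -0.03 and Pfkp near 0). Of the 19 points, 14 are positive, or 9 with the shift of the positive controls taken off, which lowers every gene alike.

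Among the 11 other hypoxia targets, Bnip3l, Ndrg1 and P4ha2 rose (27.3%, against 2.47% of all genes). Hilpda fell (9.09%, against 0.635% of all genes) and 7 did not pass. Bnip3l, also called NIX, is a mitophagy receptor that clears mitochondria from maturing reticulocytes. Its values were 11.21 and 11.15 on the SCD arrays, against 10.30 and 10.06 on the WT arrays, and the difference was 1.00 ± 0.11 (2.00-fold; adjusted p = 0.0175). It passed in all 12 alternatives that kept all arrays, with differences between 0.80 and 1.00. Its relative Bnip3 had values of 8.23 and 8.31 on the SCD arrays, against 7.80 and 8.004 on the WT arrays, in the same direction without passing (0.37 ± 0.12; adjusted p = 0.214). Erythroid and reticulocyte markers moved with Bnip3l: of 11 measured, 6 rose and none fell, with Alas2 at 3.52 ± 0.10, Fech at 2.21 ± 0.10 and Slc4a1 at 0.87 ± 0.12. Their linear values summed to 7995 and 8261 on the SCD arrays, against 1739 and 1713 on the WT arrays, and Epb42, Ermap, Gata1 and Klf1 lay below the negative controls on all arrays. Their part in the difference of Bnip3l was not tested.

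Ndrg1, a stress-responsive gene named for N-myc downstream regulation and a common hypoxia marker, had values of 6.81 and 6.95 on the SCD arrays, against 5.97 and 5.98 on the WT arrays. The groups did not overlap, and the WT values lay below the negative control median. The difference was 0.90 ± 0.11 (1.87-fold; adjusted p = 0.0242). It passed in all 12 alternatives that kept all arrays. P4ha2 and P4ha1 encode catalytic subunits of the collagen prolyl 4-hydroxylase, and Plod2 encodes a collagen lysyl hydroxylase. P4ha2 had values of 7.98 and 8.003 on the SCD arrays, against 7.33 and 7.31 on the WT arrays, very close within each group, and rose by 0.67 ± 0.10 (1.59-fold; adjusted p = 0.0377). It missed the threshold without the intensity trend (adjusted p = 0.0544), with the replicate number as a block (adjusted p = 0.0673) and with the shift of the positive controls taken off (adjusted p = 0.0752). P4ha1 had values of 9.83 and 9.93 on the SCD arrays, against 9.48 and 9.59 on the WT arrays (0.35 ± 0.10; adjusted p = 0.174). Plod2 had values of 10.11 and 10.07 on the SCD arrays, against 10.52 and 10.35 on the WT arrays, lower on both SCD arrays (-0.35 ± 0.10; adjusted p = 0.18). The collagen hydroxylase genes thus did not share 1 direction. Of 5 smooth muscle markers Cnn1 rose (0.96 ± 0.13). The 4 others did not pass, at 0.74 (Acta2), 0.18 (Des), 0.16 (Tagln) and -0.15 (Myh11). Linear sums of the list were 5402 and 5416 on the SCD arrays and 3292 and 3982 on the WT arrays. Most of each sum came from Acta2. The part of smooth muscle in the difference of P4ha2 was not tested.

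Hilpda, a small lipid droplet protein that inhibits the triglyceride lipase ATGL, had values of 8.02 and 7.95 on the SCD arrays, against 9.14 and 9.001 on the WT arrays. It fell by 1.09 ± 0.10 (2.13-fold lower; adjusted p = 0.0116), the largest difference in size among the 36 genes, and passed in all 12 alternatives that kept all arrays, between -1.28 and -1.07. Of 4 adipocyte markers Adipoq fell (-1.33 ± 0.14). The 3 others did not pass, at -0.56 (Cidec), -0.30 (Plin1) and 0.15 (Lep). The list summed to 342 and 340 on the SCD arrays, against 590 and 733 on the WT arrays, and most of each sum came from Adipoq. Lep and Plin1 lay below the negative controls on all arrays; the part of these cells in the difference of Hilpda was not tested. Adm, the gene of the vasodilator adrenomedullin, had values of 5.93 and 5.76 on the SCD arrays, against 6.46 and 6.34 on the WT arrays, below the negative controls. Its difference of -0.56 ± 0.12 (adjusted p = 0.102) passed only among protein-coding genes alone (adjusted p = 0.0455) and with the shift of the positive controls taken off (adjusted p = 0.048). Ankrd37, an ankyrin repeat gene, had values of 7.17 and 7.02 on the SCD arrays, against 6.77 and 6.76 on the WT arrays (0.33 ± 0.11; adjusted p = 0.231). Kdm3a, a histone H3 lysine 9 demethylase, had values of 8.77 and 8.79 on the SCD arrays, against 8.93 and 9.20 on the WT arrays, lower on both SCD arrays (-0.29 ± 0.12). Car9, the carbonic anhydrase often used as a hypoxia marker, overlapped between groups at -0.18 ± 0.15 with a 95% interval of -0.56 to 0.21, below the negative controls on all arrays.

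**Figure D4:**
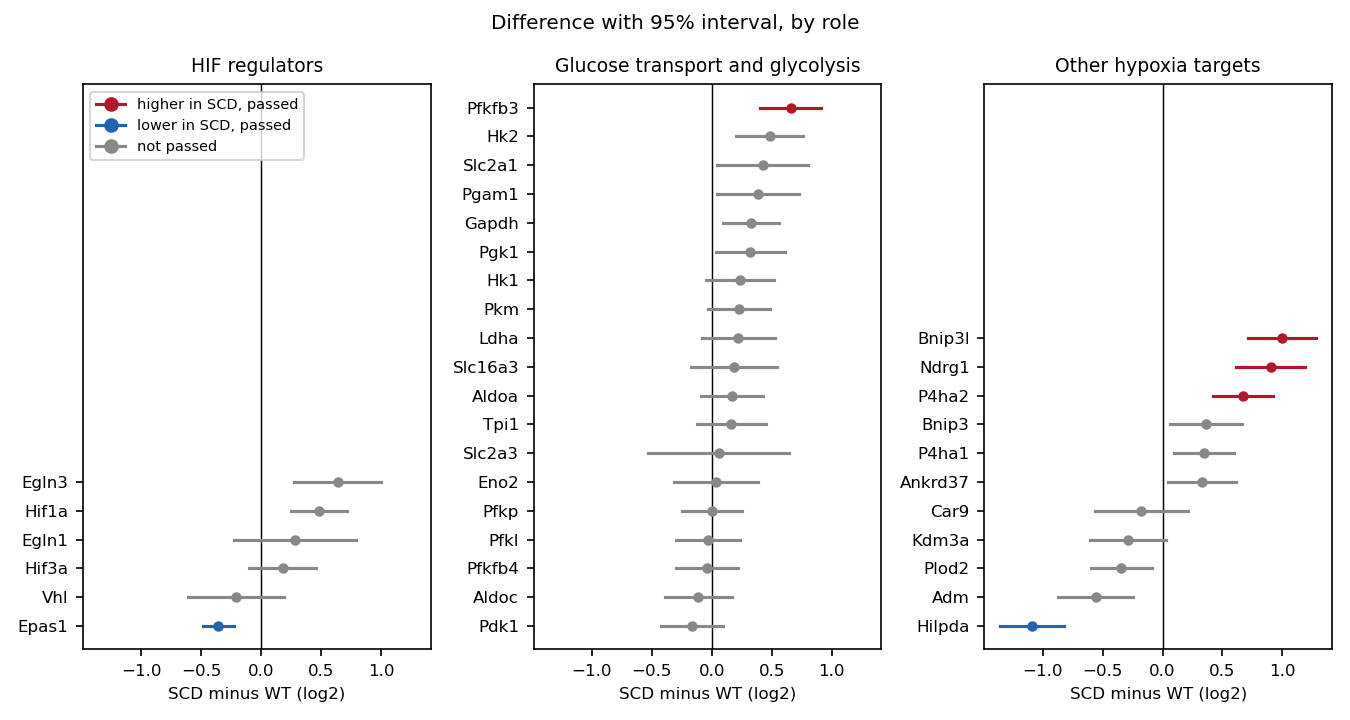
Difference, SCD minus WT on the log2 scale (points), with the 95% interval of limma (lines), for the 36 measured genes in 3 panels by role; red, rose; blue, fell; grey, did not pass. Each role except glucose transport and glycolysis holds genes whose intervals lie on opposite sides of 0: Epas1 against Hif1a and Egln3, and Hilpda, Adm and Plod2 against Bnip3l, Ndrg1 and P4ha2; with the shift of the positive controls taken off Hif3a, Slc2a3, Aldoa, Tpi1, Eno2 and Slc16a3 change sign.

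HIF binds the core letters ACGTG or GCGTG. The RefSeq promoter table (GRCm38.p6), which gives windows from 250 bases before to 50 after a gene's start, held 46 windows for 33 of the 38 genes and none for Bnip3l, Ndrg1, Epas1, Slc2a3 and Plod2. The windows of P4ha2 and Pfkfb3, which rose, and of Hilpda, which fell, are shown because these are the 3 genes past the threshold with a window. They are written 5′ to 3′ on the gene's strand, with each match to either core on either strand in capitals.
P4ha2 (chr11:54100674-54100973, plus strand): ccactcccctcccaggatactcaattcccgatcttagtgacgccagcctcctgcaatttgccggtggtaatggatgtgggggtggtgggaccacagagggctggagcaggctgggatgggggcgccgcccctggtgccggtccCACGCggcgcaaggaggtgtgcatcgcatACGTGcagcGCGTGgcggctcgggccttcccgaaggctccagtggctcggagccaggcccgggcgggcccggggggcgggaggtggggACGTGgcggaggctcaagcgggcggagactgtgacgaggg
Pfkfb3, upstream start (chr2:11553880-11554179, minus strand): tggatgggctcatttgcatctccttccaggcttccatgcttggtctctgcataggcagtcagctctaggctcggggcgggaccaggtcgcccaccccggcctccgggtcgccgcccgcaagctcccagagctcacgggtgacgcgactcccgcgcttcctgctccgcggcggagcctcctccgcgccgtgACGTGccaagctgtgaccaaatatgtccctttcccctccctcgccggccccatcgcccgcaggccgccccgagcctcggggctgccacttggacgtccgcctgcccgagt
Pfkfb3, downstream start (chr2:11502041-11502340, minus strand): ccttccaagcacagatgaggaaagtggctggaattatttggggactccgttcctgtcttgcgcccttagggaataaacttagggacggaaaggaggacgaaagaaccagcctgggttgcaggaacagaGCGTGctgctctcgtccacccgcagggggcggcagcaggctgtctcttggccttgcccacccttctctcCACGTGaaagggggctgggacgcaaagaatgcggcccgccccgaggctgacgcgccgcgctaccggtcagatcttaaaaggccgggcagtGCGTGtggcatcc
Hilpda, downstream start (chr6:29272376-29272675, plus strand): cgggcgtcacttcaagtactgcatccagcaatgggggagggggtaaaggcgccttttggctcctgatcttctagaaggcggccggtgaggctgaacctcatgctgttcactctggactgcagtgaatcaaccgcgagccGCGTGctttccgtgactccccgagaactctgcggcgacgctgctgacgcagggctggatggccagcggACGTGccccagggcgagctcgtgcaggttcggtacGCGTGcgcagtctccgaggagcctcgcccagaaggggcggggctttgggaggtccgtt
The P4ha2 window held 4 matches, the Pfkfb3 windows 1 and 4 (2 of the 4 overlap each other in 1 palindrome), and the Hilpda window 3. A second Hilpda window, which overlaps the one shown, held 1, at a site already counted among these 3. Genes that rose and the gene that fell thus both held the core. At least 1 match lay in a window of 29 of the 33 genes (87.9%), against 52.3% of 17491 protein-coding genes and 46.7% of all 27025 genes in the table. With ACGTG alone the shares were 63.6% of the 33 genes and 23.2% of protein-coding genes. The windows of the 33 genes were also richer in G and C, at 62.3% ± 8.0 (SD over 46 windows), against 56.2% ± 11.6 for protein-coding genes, and many of these genes are known as HIF targets, so that the higher share is a description only. The genes with no match in any of their windows were Eno2, Gpi1, Tpi1 and Vhl.

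Outside the 38 genes, Bhlhe40, Bpgm, Pdk4 and Slc16a7 rose in SCD lung, and no oxygen sensing partner passed. Of 70 other genes of the pathway listed, 60 were measured: 4 rose (6.67%, against 2.47% of all genes), none fell (against 0.635% of all genes), and 56 did not pass. A positive difference was found for 43 (71.7%, against 50.3% of all genes). With the shift of the positive controls taken off, 23 were positive and the median of all genes was -0.19. Among 8 oxygen sensing partners none passed in limma and none had an unadjusted p under 0.05; they include Arnt, the partner of the alpha subunits (-0.07 ± 0.09), Egln2 (-0.03 ± 0.11) and the asparagine hydroxylase gene Hif1an (-0.19 ± 0.16). Among 23 other hypoxia targets, only Bhlhe40, a transcriptional repressor that is also a clock gene, rose (4.35%, against 2.47% of all genes). It had values of 8.09 and 8.19 on the SCD arrays, against 6.49 and 6.35 on the WT arrays (1.72 ± 0.11; adjusted p = 0.00691). Ero1a, an oxidase of disulfide formation, and Lox, which cross-links collagen and elastin, had the next smallest p, at 0.81 ± 0.15 (adjusted p = 0.0692) and 0.74 ± 0.15 (adjusted p = 0.09). Vegfa, the endothelial growth factor gene and a standard HIF target, had values of 13.06 and 13.13 on the SCD arrays, against 13.16 and 13.17 on the WT arrays, with a difference of -0.07 ± 0.07 and a 95% interval of -0.25 to 0.11.

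Among 29 isoenzymes and neighbours in glucose metabolism, Bpgm, Pdk4 and Slc16a7 rose (10.3%, against 2.47% of all genes). None fell (against 0.635% of all genes). Bpgm, which makes the 2,3-bisphosphoglycerate that loosens oxygen from hemoglobin in red cells, had values of 7.74 and 7.497 on the SCD arrays, against 6.67 and 6.57 on the WT arrays (1.00 ± 0.13; adjusted p = 0.0275); it is also among the erythroid markers above. Pdk4, a pyruvate dehydrogenase kinase known to respond to fasting and glucocorticoids, had values of 10.79 and 11.16 on the SCD arrays, against 9.89 and 10.02 on the WT arrays (1.02 ± 0.15; adjusted p = 0.0369), while its relative Pdk1 lay lower in SCD without passing and Pdk2 differed by 0.00 ± 0.10. Slc16a7 (MCT2), a monocarboxylate transporter, had values of 9.08 and 9.06 on the SCD arrays, against 8.38 and 8.45 on the WT arrays (0.65 ± 0.09; adjusted p = 0.0367). Ldhb, the heart-type lactate dehydrogenase gene, lay lower on both SCD arrays (-0.39 ± 0.08; adjusted p = 0.0958), as did the transporter gene Slc16a1 (-0.36 ± 0.10; adjusted p = 0.175), and Slc2a12 lay higher (0.45 ± 0.11; adjusted p = 0.126).

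Markers of blood, muscle and liver cells were also compared between the groups. Of 10 neutrophil markers 6 rose and none fell, with S100a8 at 2.62 ± 0.16 and Cxcr2 at 1.72 ± 0.20; linear values summed to 441900 and 492800 on the SCD arrays, against 68900 and 90790 on the WT arrays, and Ly6g, Mmp9 and Ngp lay below the negative controls on all arrays. Of 7 monocyte and macrophage markers Ly6c2 and Ccr2 rose, Marco fell and 4 did not pass. Their linear values summed to 118000 and 115600 on the SCD arrays, against 42510 and 43090 on the WT arrays. Most of each sum came from Ly6c2, with values of 16.76 and 16.73 on the SCD arrays, against 15.19 and 15.19 on the WT arrays. Most of the neutrophil sums likewise came from S100a8 and S100a9, since a linear sum gives most weight to the brightest markers of its list. Of 4 cardiac muscle markers Nppa (2.88 ± 0.13) and Myl7 (1.20 ± 0.10) rose, with sums of 25250 and 26810 on the SCD arrays and 14160 and 13120 on the WT arrays, while none of 4 skeletal muscle markers passed (0 with an unadjusted p under 0.05). Of 4 hepatocyte markers, all below the negative controls, Alb fell (-0.77 ± 0.12). The part of these cells in the differences of Pfkfb3 and of the other glucose genes was not tested.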

How the data were processed

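Whole lung RNA of 2 SCD and 2 WT samples was measured on Affymetrix arrays, after 3' in vitro transcription labelling, per the labels' protocols. The deposited table gives each probe set a log2 expression value per array. The submitters' processing notes name Affymetrix Expression Console, Partek and RMA without versions, roles or order; the genome build is not given in the sources used here, and the log2 scale was inferred from the range of 1.72 to 19.93. This ceiling hides any difference of the brightest genes; no member reached it. Groups came from the sample titles.

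Of 72688 rows, 6732 were controls. Platform gene symbols, brought up to date with RefSeq (GRCm38.p6), paired 31258 transcript clusters with 1 gene, 1492 with several and 33206 with none. Each gene was represented by its brightest probe set, which gave 30702 genes. No filter on low values was applied, so that all 36 measured members were tested. The chromosome in a probe set's number matched the gene's RefSeq chromosome for 99.8% of genes.

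The test of SCD against WT used limma 3.58.1 (R 4.3.3): lmFit, eBayes with an intensity trend, group as the only term, two-sided, Benjamini-Hochberg over all genes. The number of arrays limits the precision. The fit was tested on simulated data of 30702 genes for SCD against WT. It found 22.2% of the genes given a log2 difference of 1 and 89.4% of those given 2, with 6.6 false calls on average. These shares belong to that simulation, and the share of differences found in the measured data was not tested. Members, roles, pathway and marker lists were chosen with earlier results of these data known. Named genes are every member, the other pathway genes past the threshold with the 4 next, and up to 3 genes past the threshold per marker list; genes named beyond these were chosen after their values were seen. Same-numbered arrays of the groups did not deviate together (r of -0.002 across genes), so no pairing was used. Replicate block, trend, filter, normalization, gene set and left-out arrays were varied; cyclic loess and the second Pgk1 probe set were added after seeing the data.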

Additional observations from a re-analysis of the deposited data

How the results depend on the processing

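Bnip3l, Ndrg1 and Hilpda passed in every alternative that kept all 4 arrays, and Pfkfb3, P4ha2 and Epas1 did not; the causes were not tested. Of the members, 2 were called higher in limma with the replicate number as a block (Pfkfb3 and P4ha2 missed at adjusted p of 0.0637 and 0.0673). Members called higher numbered 2 without the intensity trend, 2 with the shift of the positive controls taken off and 7 among protein-coding genes alone. In the fit of protein-coding genes fewer genes are tested and the variances are refitted, with an SE of 0.083 for Hif1a, against 0.090 in the main fit. Members called lower numbered 1 without the trend, with equal array medians, with robust variances and with identical values left out. Over all genes, 114 were called lower without the trend and 321 without the dimmest 50% of genes. With the shift of the positive controls taken off 573 were called lower, and 323 among protein-coding genes. The replicate number, which did not pair the samples, gave 780 higher and 193 lower calls over all genes. Leaving out 1 array gave 0 to 643 genes higher and 0 to 143 lower, with 0 to 1 members higher and 0 to 1 lower.

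Signs turned only for small differences. With the shift of the positive controls taken off these were Hif3a (-0.018), Slc2a3 (-0.14), Aldoa (-0.031), Tpi1 (-0.035), Eno2 (-0.16) and Slc16a3 (-0.0097). Pfkp turned to 0.026 with repeated quantile normalization and 0.017 with cyclic loess. With 1 array left out, Pfkp ranged from -0.034 to 0.032, Pfkl from -0.080 to 0.015, Eno2 from -0.075 to 0.14 and Slc2a3 from -0.26 to 0.38. Low signal limits the 8 members below the negative controls.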
